A study of Arabidopsis thaliana with 6 samples.

Results

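The transcriptome described here is that of Arabidopsis thaliana Col-0 leaf mesophyll protoplasts transfected with a 35S:mCHERRY plasmid. In this plasmid a viral promoter active in most plant cells drives a red fluorescent protein of no known plant function. The libraries were chosen by their label: all 3 mCHERRY libraries of the 6 libraries in the series were used, and the other 3, made from GmWRI1 protoplasts, entered no value. Plants were grown with 16 h of light and 8 h of darkness at 20 °C, protoplasts were kept for 16 h after transfection, and 50 ng of total RNA went into each amplified cDNA library. Reads were aligned to nuclear, chloroplast and mitochondrial transcripts, so no level of the mCHERRY transgene was analysed here. The cells of all 3 libraries passed through wall digestion and transfection with the plasmid, and the share that took it up is not stated. Protoplasts not put through transfection and intact leaves were not analysed here. A level given below is therefore that of a batch of isolated cells put through transfection and not of a leaf.

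Mesophyll cells are the photosynthetic parenchyma of the leaf. In the intact organ they draw on nuclear genes for light harvesting and carbon fixation together with a chloroplast genome that encodes the core subunits of the photosystems and of Rubisco. Removing the wall with enzymes exposes such a cell to wounding, osmotic stress and wall fragments, and jasmonate, ethylene, oxidative and immune programmes are known to respond to these stimuli. Functions of named genes given below are background from general knowledge of Arabidopsis.

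The 3 libraries held 8227115, 6253001 and 4155836 counts assigned to a gene in replicates 1, 2 and 3. A further 51.5%, 50.0% and 63.3% of all counts stood under no gene name and were left out, the highest share being in replicate 3. Counts covered 19086, 18820 and 18221 transcripts, 1 for each locus, and 20456 loci in at least 1 library. Of these loci, 20295 were nuclear, 70 chloroplast and 91 mitochondrial. The study calls its samples biological replicates, each a separate transfection, but neither it nor the labels state that they came from separate plants or protoplast preparations, so the spread given below may be partly technical.

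Nuclear genes took 88.5% ± 0.11 of the counts, chloroplast genes 11.0% ± 0.13 and mitochondrial genes 0.434% ± 0.052 (SD, n = 3). The chloroplast share was 11.0%, 11.2% and 10.9% in replicates 1, 2 and 3, and the mitochondrial share was 0.387%, 0.426% and 0.489%. The 3 compartments were thus far apart in every library, and replicate 3 held the largest mitochondrial share. The split rests on how 1 locus is assigned. AT2G07706, an uncharacterized locus on chromosome 2 (3381463 to 3386102 in TAIR10.1), took 1.3%, 1.26% and 2.07% of all counts. Each 32-base word of its 4640-base span also occurs in the mitochondrial genome, between positions 247682 and 252321, where the annotation places a tRNA gene and no protein-coding or rRNA gene. Reads of nuclear and mitochondrial origin cannot be told apart there. Among the nuclear loci with reads, 47 had over 50% of their transcript in an organelle genome, and AT2G07706 held 95.3% of the counts of these loci. With these 47 loci counted as organelle genes the mitochondrial share was 2.05%.

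The most abundant nuclear transcripts included many whose products are known from stress, wounding and defence, and none of the 30 highest was in a photosynthesis list. This grouping goes by the known roles of single genes and was not tested. Abundance is given in transcripts-per-million units (TPM), counts divided by transcript length and scaled to the same total in each library over the 20254 nuclear loci that had reads and an annotated length, and genes are compared with each other only on this scale. AT2G07706 headed the ranking at 10294, 10038 and 16228 TPM in replicates 1, 2 and 3, with the doubt about its origin given above. AT4G12490, of the bifunctional inhibitor and lipid-transfer protein family, followed at 10630, 11540 and 12306 TPM. Because 46.0% of its 32-base words recur in other transcripts and only reads with 1 best location were kept, its level is uncertain. Next came PRXCB (AT3G49120), a secreted class III peroxidase that forms hydrogen peroxide during defence, at 10140, 10712 and 11884 TPM. TI1 (AT2G43510), a small trypsin inhibitor, had 10116, 10164 and 11742 TPM. The ranges of these 4 genes overlapped, and none of them can be placed above the next.

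ELI3-2 (AT4G37990), an elicitor-activated alcohol dehydrogenase, had 8478, 7805 and 7529 TPM, and all 3 values lay below those of TI1. SAG13 (AT2G29350), a short-chain dehydrogenase used as an early marker of senescence and cell death, was the steadiest of the leading genes at 6089, 6077 and 6208 TPM. EARLI1 (AT4G12480), a cell-wall protein related to AT4G12490, had 5452, 5410 and 6321 TPM. A second transcript with no described product stood among them. AT2G01021, only 102 bases long, lies on chromosome 2 (6571 to 6672) behind the rRNA genes AT2G01010 (3706 to 5513) and AT2G01020 (5782 to 5945). Whether rRNA reads of this stretch have a part in its counts was not tested. The level of AT2G01021 was 4885, 5862 and 11663 TPM, so that replicate 3 was far above both others. AT2G07706 was likewise highest in replicate 3, the library with the highest share of counts under no gene name, and whether that share has a part in either level was not tested.

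The remaining members of the 30 highest nuclear genes fell into a few recurring classes. Protease inhibitors were represented by KTI1 (AT1G73260), a Kunitz trypsin inhibitor, at 4656 ± 326 TPM, by UPI (AT5G43580) at 3775 ± 363 TPM and by AT2G38870 at 3567 ± 742 TPM, the last pair of the potato inhibitor I type. Enzymes against peroxides, aldehydes and xenobiotics were GPX6 (AT4G11600), a glutathione peroxidase, at 4032 ± 393 TPM, APX1 (AT1G07890), the cytosolic ascorbate peroxidase, at 3674 ± 345 TPM, AER (AT5G16970), an alkenal reductase, at 2582 ± 173 TPM, and GSTU19 (AT1G78380), a glutathione transferase, at 2417 ± 191 TPM (SD, n = 3 throughout). Secondary metabolism was represented by CYP71A12 (AT2G30750), a cytochrome P450 of indole defence compounds, at 4295 ± 329 TPM, NIT1 (AT3G44310), a nitrilase, at 4260 ± 317 TPM, NSP5 (AT5G48180), which directs glucosinolate breakdown, at 3115 ± 225 TPM, and C4H (AT2G30490), the second enzyme of the phenylpropanoid pathway, at 2715 ± 161 TPM.

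Wall and membrane proteins made up another class. AT2G45220, of the pectin methylesterase and inhibitor family, had 4956 ± 344 TPM, AT4G15610, of a family of small membrane proteins, had 4457 ± 641 TPM, and GLP5 (AT1G09560), a germin-like protein, had 3730 ± 135 TPM. HA1 (AT2G18960), the main plasma membrane proton pump, had 3043 ± 197 TPM, and PEN3 (AT1G59870), an ABC transporter of penetration resistance, had 2762 ± 175 TPM. MT2A (AT3G09390), a metallothionein, had 3075 ± 98.0 TPM, JAZ1 (AT1G19180), a repressor of jasmonate signalling, 2877 ± 149 TPM, and RD21A (AT1G47128), a vacuolar cysteine protease, 2253 ± 58.1 TPM. SAG24 (AT1G66580) had 2703 ± 141 TPM and AT5G61820, annotated as a stress up-regulated protein, 2434 ± 132 TPM. AT4G22470, of the lipid-transfer family, had 2714 ± 519 TPM, and 88.4% of its 32-base words recur in another transcript, so this value is uncertain.

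**Figure D1:**
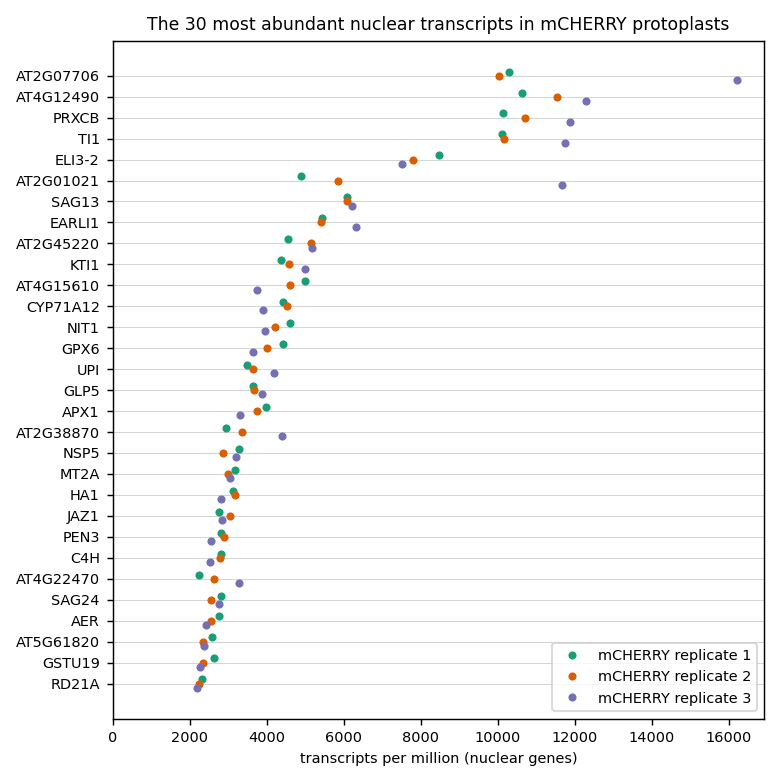
TPM (x axis, from 0) of the 30 nuclear transcripts of highest mean, 1 row per gene, with 1 point for each of the 3 mCHERRY libraries. Most neighbouring genes overlap, and replicate 3 lies far to the right for AT2G07706 (16228 TPM) and AT2G01021 (11663 TPM).

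The order within this ranking was loose. Of the 29 pairs of neighbouring ranks among the 30 genes, 27 had overlapping ranges over the 3 libraries. The exceptions were TI1 over ELI3-2 and EARLI1 over AT2G45220.

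A TATA box, the sequence TATAAA bound by the core transcription machinery, marks the promoters of many stress-responsive plant genes. The letters TATAAA, read on the gene's own strand with the first base 20 to 50 bases before the annotated start, were found for 4 of the 30 genes (13.3%) and for 8.94% of all 27444 protein-coding nuclear loci. The 30-base windows of 3 of these genes are shown because the genes are among the most abundant in the cells. They were read from the TAIR10.1 genome 5′ to 3′, with TATAAA in capitals.
KTI1 (chr1:27548285-27548314, minus strand, first motif base at −20): ttaaccaaaataTATAAAtcaaagaaacgt
AT2G38870 (chr2:16237294-16237323, minus strand, at −31): tgaacatcgtgaTATAAAtatgtacatttc
GSTU19 (chr1:29488019-29488048, minus strand, at −29): aaatactgtaatTATAAAttattactttaa
Over wider classes the share of loci with the motif anywhere in the 250 bases before the start was 33.2% in the 500 most abundant genes, 31.7% in ranks 501 to 5000, 31.1% in the other loci with reads and 37.6% in loci without reads. It was 32.9% over all loci, and the class without reads held the highest share. Transcripts of the 500 most abundant genes had a median length of 1533 bases and a median of 4 exons, against 927 bases and 2 exons for loci without reads, of which 32.3% had a single exon.

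Expression was spread over many genes. The 20 most abundant genes of any compartment held 16.3% ± 0.36 of the counts, the top 100 held 28.8% ± 0.46 and the top 1000 held 59.1% ± 0.33 (SD, n = 3). The number of genes that together held 50% of the counts was 589, 585 and 562 in replicates 1, 2 and 3. Among nuclear genes on the TPM scale, 97 loci exceeded 1000 TPM, 1992 exceeded 100 TPM, 9786 exceeded 10 TPM and 15507 exceeded 1 TPM, with a median of 8.98 TPM over loci with reads. The 3 libraries followed similar curves of abundance against rank, which parted at the highest genes and ended at different ranks, since the deeper libraries held reads for more loci.

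**Figure D2:**
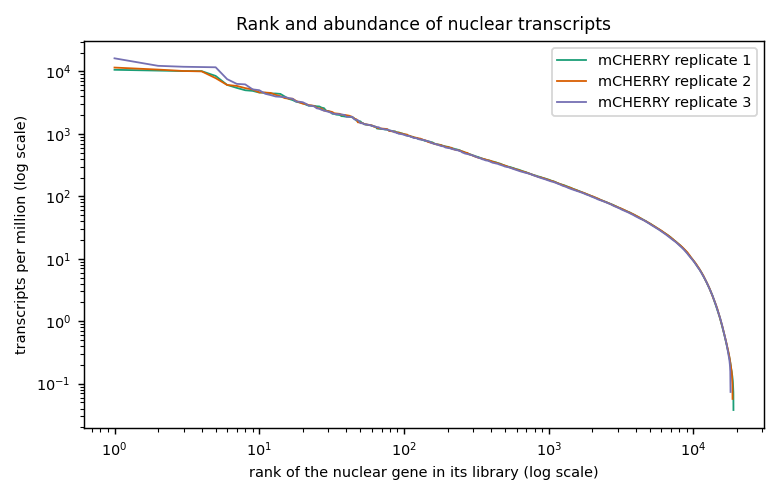
TPM of each nuclear gene (y axis, log scale) against its rank in its own library (x axis, log scale), 1 line for each of the 3 mCHERRY libraries. The lines lie close together over most of their length, replicate 3 starts higher, at 16228 TPM, and the lines end at different ranks.

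Chloroplast transcripts were dominated by a handful of genes. Lengths for organelle genes were not used here, so they are given in counts-per-million units (CPM) of all gene counts, on which scale longer transcripts weigh more. ATCG00020 had 29625, 27838 and 26135 CPM in replicates 1, 2 and 3 and took 25.2% ± 1.5 of the chloroplast counts. ATCG00340 had 16123 ± 392 CPM, ATCG00680 had 10476 ± 64.6 CPM and ATCG00280 had 8849 ± 1233 CPM. ATCG00490, which encodes the large chain of Rubisco, the carbon-fixing enzyme, had 8018, 7982 and 8742 CPM. ATCG00350, ATCG00120 and ATCG00720 followed at 7948 ± 327, 5930 ± 204 and 5885 ± 727 CPM, and ATCG00580 and ATCG00480 at 2419 ± 375 and 2318 ± 64.9 CPM. The 3 highest genes held 49.4% ± 1.6 and the 10 highest 87.1% ± 0.84 of the chloroplast counts, and ATCG00020 drew 182 times the counts of the median chloroplast gene.

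The other chloroplast genes named here drew far fewer counts than those leading genes. Product names were used for only some chloroplast genes, and most of the leading ones are given by ID. The values below therefore do not show the level of a whole complex. The proteolytic subunit ClpP (ATCG00670) had 459 ± 22.6 CPM, photosystem II protein K (ATCG00070) 250.4 ± 81.5 CPM and photosystem II protein Z (ATCG00300) 45.0 ± 3.4 CPM. The ribosomal protein genes covered a wide range, with 144 ± 10.6 CPM for S11 (ATCG00750), 64.7 ± 11.4 CPM for S14 (ATCG00330), 7.58 ± 1.6 CPM for L33 (ATCG00640) and 4.37 ± 1.0 CPM for S16 (ATCG00050). All 70 chloroplast genes in the libraries exceeded 1 CPM.

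Mitochondrial counts were fewer. ATMG00513 had 1129, 1190 and 1294 CPM, held 27.9% ± 1.4 of the mitochondrial counts and drew 573 times the counts of the median mitochondrial gene. The 10 highest genes held 73.8% ± 0.41 of the mitochondrial counts. ATMG00030, ATMG01360, ATMG00580 and ATMG00090 had 353 ± 72.3, 353 ± 43.0, 330 ± 23.5 and 272 ± 36.3 CPM. Cytochrome c oxidase subunit 3 (ATMG00730), of the respiratory chain, had 83.1, 106 and 151 CPM, and subunit 1 of ATP synthase (ATMG01190) had 15.2, 17.3 and 16.8 CPM. Of the 91 mitochondrial genes with reads, 32 averaged under 1 CPM, where each value rests on a few reads.

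**Figure D3:**
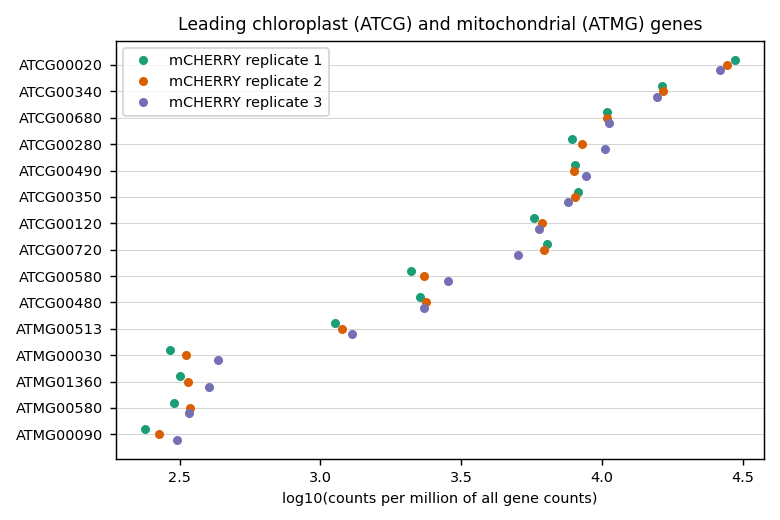
Log10 CPM of the 10 chloroplast (ATCG) and 5 mitochondrial (ATMG) genes of highest mean, 1 point for each of the 3 mCHERRY libraries. All 10 chloroplast genes lie above the highest mitochondrial gene, ATMG00513, at 1129 to 1294 CPM.

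Nuclear photosynthesis genes were all transcribed, at moderate levels. The 5 lists for light harvesting, photosystem I, photosystem II, electron transport with ATP synthase, and the Calvin cycle held 80 genes, and all 80 had reads. Together they summed to 3071, 3081 and 3301 TPM in replicates 1, 2 and 3, which is 0.315% of the nuclear TPM, and they took 0.201% ± 0.0054 of all counts, against 11.0% for the chloroplast genes. Their median was 28.0 TPM, at percentile 70.4 of the nuclear loci with reads, and 8 of the 80 exceeded 100 TPM. The highest, PSBR, ranked 633rd, and it was the only gene of the 80 among the top 1000 nuclear genes by TPM.

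Light harvesting had the lowest median of the photosynthesis lists, 13.1 TPM over 21 genes, and none of them exceeded 100 TPM. LHCB4.1 (AT5G01530), a minor antenna protein of photosystem II, led at 58.5, 63.1 and 60.3 TPM. LHCA4 (AT3G47470) and LHCA1 (AT3G54890), antenna proteins of photosystem I, had 57.0 ± 8.4 and 39.9 ± 0.79 TPM. LHCB1.3 (AT1G29930), of the major trimeric antenna, had 46.8 ± 4.5 TPM, and the 5 LHCB1 genes together had 97.2, 109 and 101 TPM. From 22.9% to 37.4% of the words in each LHCB1 transcript recur elsewhere, so single members and their sum are uncertain. With only the length free of copies used, the 21 genes of the list summed to 450 TPM, against 416 TPM with the full length. LHCA6 (AT1G19150) was lowest at 0.63, 0.00 and 0.41 TPM.

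Among the photosystem lists, subunits of the same complex differed widely. In photosystem I, PSAE1 (AT4G28750), PSAG (AT1G55670) and PSAE2 (AT2G20260) had 46.9 ± 7.5, 41.8 ± 5.4 and 41.2 ± 5.1 TPM, and PSAK (AT1G30380) had 30.3, 20.1 and 67.4 TPM, with replicate 3 above both others. The levels of PSAG and PSAE1 are uncertain, since 59.8% and 30.8% of their words are shared with AT1G55673 and AT4G28755. PSAH2 (AT1G52230) was lowest at 1.38, 0.46 and 3.39 TPM, with 21.3% of its words shared with AT1G52240. In photosystem II, PSBR (AT1G79040) had 229, 207 and 336 TPM, PSBW (AT2G30570) 116 ± 10.2 TPM, PSBY (AT1G67740) 59.5 ± 2.2 TPM and PSBS (AT1G44575), which dissipates excess light energy, 48.1 ± 7.0 TPM. PSBTN (AT3G21055) was lowest at 7.40 ± 0.73 TPM.

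In electron transport, PGR5 (AT2G05620), needed for cyclic electron flow, led with 155, 164 and 165 TPM. The ferredoxins FD2 (AT1G60950) and FD1 (AT1G10960) had 113 ± 14.9 and 109 ± 1.9 TPM, and ATPG (AT4G32260), a stalk subunit of ATP synthase, 90.6 ± 8.1 TPM. The plastocyanins, which pass electrons to photosystem I, were low, at 19.6 ± 5.2 TPM for PETE2 (AT1G20340) and 2.31 ± 1.7 TPM for PETE1 (AT1G76100).

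In the Calvin cycle, the regulatory protein CP12-1 (AT2G47400) had 126, 128 and 145 TPM, the transketolase TKL1 (AT3G60750) 131 ± 7.1 TPM, ribulose-phosphate epimerase RPE (AT5G61410) 100.1 ± 9.2 TPM and CP12-2 (AT3G62410) 82.0 ± 9.3 TPM. RBCS genes, which encode the small subunit of Rubisco, were dominated by RBCS1A (AT1G67090) at 58.7, 68.7 and 73.9 TPM. RBCS3B (AT5G38410) had 5.13, 5.97 and 8.03 TPM, RBCS2B (AT5G38420) 0.54 ± 0.42 TPM and RBCS1B (AT5G38430), the lowest of the list, 0.37 ± 0.13 TPM. The 4 genes summed to 74.4 ± 9.4 TPM. Copies limit the last 3, of whose words from 18.7% to 36.3% recur in other transcripts, but only 4.2% of those of RBCS1A do.

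Photorespiration, which recovers carbon lost to the oxygenase reaction of Rubisco, had a median of 35.0 TPM over 17 genes. The aminotransferase GGAT1 (AT1G23310) stood out at 386, 344 and 275 TPM, followed by AGT1 (AT2G13360) at 69.5 ± 5.8 TPM, glycolate oxidase GOX1 (AT3G14420) at 58.7 ± 4.2 TPM and the glycine decarboxylase subunit GLDP1 (AT4G33010) at 49.2 ± 3.0 TPM. PGLP1 (AT5G36700) had no reads, but 98.9% of its words are shared with AT5G36790, so unique reads could not have measured it.

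Genes of chlorophyll breakdown were more abundant than those of its synthesis. All 6 breakdown genes had reads, with a median of 225 TPM, and 4 of the 6 exceeded 100 TPM, while 2 of the 22 synthesis genes did so, with a median of 19.6 TPM. NYC1 (AT4G13250), which reduces chlorophyll b, had 523, 498 and 463 TPM. PAO (AT3G44880), which opens the ring, had 350 ± 18 TPM, NYE1 (AT4G22920), which removes magnesium, 258 ± 8.6 TPM, PPH (AT5G13800), which removes phytol, 192 ± 7.8 TPM, and CLH1 (AT1G19670) 8.14 ± 1.6 TPM. In synthesis the early enzymes led, with HEMA1 (AT1G58290) at 145 ± 14.4 TPM, HEMB1 (AT1G69740) at 136 ± 3.0 TPM, PPOX1 (AT4G01690) at 80.2 ± 4.4 TPM and GSA1 (AT5G63570) at 61.2 ± 10.5 TPM. The light-dependent protochlorophyllide reductases, which act late in the pathway, were near 0, at 1.11 ± 0.91 TPM for PORB (AT4G27440) and 0.46 ± 0.26 TPM for PORC (AT1G03630).

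In starch and sucrose metabolism, BAM3 (AT4G17090), a plastid amylase of starch degradation, had 340, 355 and 299 TPM. ADG1 (AT5G48300), of starch synthesis, had 149 ± 16.3 TPM, SPS1F (AT5G20280), a sucrose-phosphate synthase, 127 ± 0.90 TPM, APL1 (AT5G19220) 36.9 ± 0.81 TPM and DPE1 (AT5G64860) 1.19 ± 0.23 TPM. Genes known to rise in darkness or sugar starvation summed to 3377 ± 47.7 TPM, of which GDH2 (AT5G07440), a glutamate dehydrogenase, held 61.4%, with 2024, 2111 and 2087 TPM. DIN2 (AT3G60140), a glucosidase, had 901 ± 42.6 TPM, DIN10 (AT5G20250) 105 ± 6.8 TPM, ASN1 (AT3G47340), an asparagine synthetase, 96.3 ± 10.9 TPM and MCCA (AT1G03090) 5.37 ± 0.79 TPM.

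Redox and detoxification genes had the largest summed level of the function lists as drawn up, 17075 ± 1039 TPM over 33 genes. Ribosomal proteins followed at 16176 ± 575 TPM over 355 genes, and the ranges of these sums overlapped. The ribosomal list was taken by product name and may miss abundant genes, so the order of these lists is not settled. Of the 33, 20 exceeded 100 TPM, and 11 were among the 500 most abundant nuclear genes. Besides APX1, MT2A and GSTU19, the transferase GSTF6 (AT1G02930) had 1398, 1220 and 1002 TPM. Relatives of these genes stood far apart, with 13.0 ± 2.0 TPM for the metallothionein MT2B (AT5G02380), 0.51 ± 0.56 TPM for MT3 (AT3G15353) and 0.38 ± 0.35 TPM for the heat-inducible peroxidase APX2 (AT3G09640). MT1A (AT1G07600) had no reads and is uncertain, since all of its words recur in AT1G07590.

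Jasmonate and wounding genes summed to 7124 ± 265 TPM, and 26 of the 28 had reads. JAZ1 held 40.4% of the list, with 2752, 3043 and 2837 TPM. CYP94B3 (AT3G48520), which inactivates the hormone, had 949, 986 and 1121 TPM, and the lipoxygenases LOX3 (AT1G17420) and LOX4 (AT1G72520), which begin its synthesis, had 750 ± 1.8 and 343 ± 21.5 TPM. The 12 JAZ genes summed to 4003 ± 170 TPM. The vegetative storage protein genes VSP1 (AT5G24780) and VSP2 (AT5G24770), jasmonate-responsive in leaves, had 0 counts in all 3 libraries, which allows up to 0.161 CPM over the 3 libraries together.

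Immune genes summed to 9102 ± 544 TPM, and all 20 had reads. PR1 (AT2G14610), the marker of salicylate-dependent immunity, had 2353, 2121 and 2054 TPM. WRKY33 (AT2G38470), a transcription factor of camalexin synthesis, had 2036, 2308 and 2143 TPM, the peroxidase PER4 (AT1G14540) 1515 ± 187 TPM and FRK1 (AT2G19190), a receptor kinase and reporter of pattern-triggered immunity, 1351 ± 161 TPM. Members differed by orders of magnitude, since PR2 had 39.1 TPM and PR5 18.8 TPM, and CYP71A13 (AT2G30770), partly copied in AT2G30766, was lowest at 3.14 ± 0.81 TPM.

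Senescence genes also differed widely. SAG13, ERD1 (AT5G51070), a plastid protease regulator, WRKY6 (AT1G62300) and SAG21 (AT4G02380) had 6125 ± 72.6, 1843 ± 89.7, 1206 ± 28.3 and 769 ± 2.8 TPM. SAG12 (AT5G45890), the protease that marks late developmental senescence, and SAG29 (AT5G13170) had 0 counts in all 3 libraries. Chaperone genes summed to 2583 ± 288 TPM. HSC70-3 (AT3G09440) and HSC70-1 (AT5G02500), constitutive cytosolic chaperones, had 637 ± 15.3 and 398 ± 12.2 TPM. The heat-inducible HSP90.1 (AT5G52640) and HSP70 (AT3G12580) had 429, 544 and 601 TPM and 233, 266 and 309 TPM in replicates 1, 2 and 3, while plastid HSP21 (AT4G27670) had 0 counts.

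The cell wall list was led by XTH24 (AT4G30270), a wall-loosening enzyme, at 379, 418 and 457 TPM, ahead of KOR1 (AT5G49720) at 136 ± 14.2 TPM, XTH22 (AT5G57560) at 109 ± 8.7 TPM and the wound callose synthase GSL5 (AT4G03550) at 47.2 ± 7.2 TPM. XTH9 (AT4G03210) had 0 counts. In the circadian clock list the RNA-binding protein GRP8 (AT4G39260) had 207, 222 and 269 TPM, PRR5 (AT5G24470) 157 ± 2.2 TPM, LNK2 (AT3G54500) 89.9 ± 9.5 TPM, RVE8 (AT3G09600) 68.1 ± 4.9 TPM and CO (AT5G15840), the flowering regulator, 0.42 ± 0.10 TPM. GRP8 was 49.7 to 57.5 times its close relative GRP7 (AT2G21660), which had 4.31 ± 0.53 TPM. The morning genes CCA1 and LHY had 48.5 ± 1.5 and 62.6 ± 3.1 TPM, and the evening gene TOC1 had 51.5 ± 4.9 TPM. The study's text gives neither the light during the 16 h after transfection nor the hour of harvest. Levels of the clock list, and of the darkness and starvation list, are therefore given without a known phase.

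Proliferation genes were at the bottom of the function lists. The median of the 18 cell cycle genes was 1.06 TPM, at percentile 24.0, and none reached 10 TPM. TSO2 (AT3G27060), a ribonucleotide reductase subunit, had 9.65 ± 1.6 TPM, the mitotic kinases CDKB2;1 (AT1G76540) and CDKB2;2 (AT1G20930) 7.68 ± 1.5 and 7.65 ± 2.4 TPM, CDKA;1 (AT3G48750) 6.49 ± 2.2 TPM and CYCB1;4 (AT2G26760) 0.10 ± 0.09 TPM. Ribosomal protein genes of all compartments, taken by product name, had a median of 22.2 TPM. The highest so named were SAC52 (AT1G14320) at 421 ± 31.6 TPM, emb2386 (AT1G02780) at 321 ± 24.8 TPM, AT5G20290 at 278 ± 18.4 TPM and AT5G15200 at 268 ± 28.8 TPM. Ribosomal protein genes under other product names are not in this list, so a more abundant one may be missing. Of the 355 members 24 had no reads, AT5G51610 among them.

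**Figure D4:**
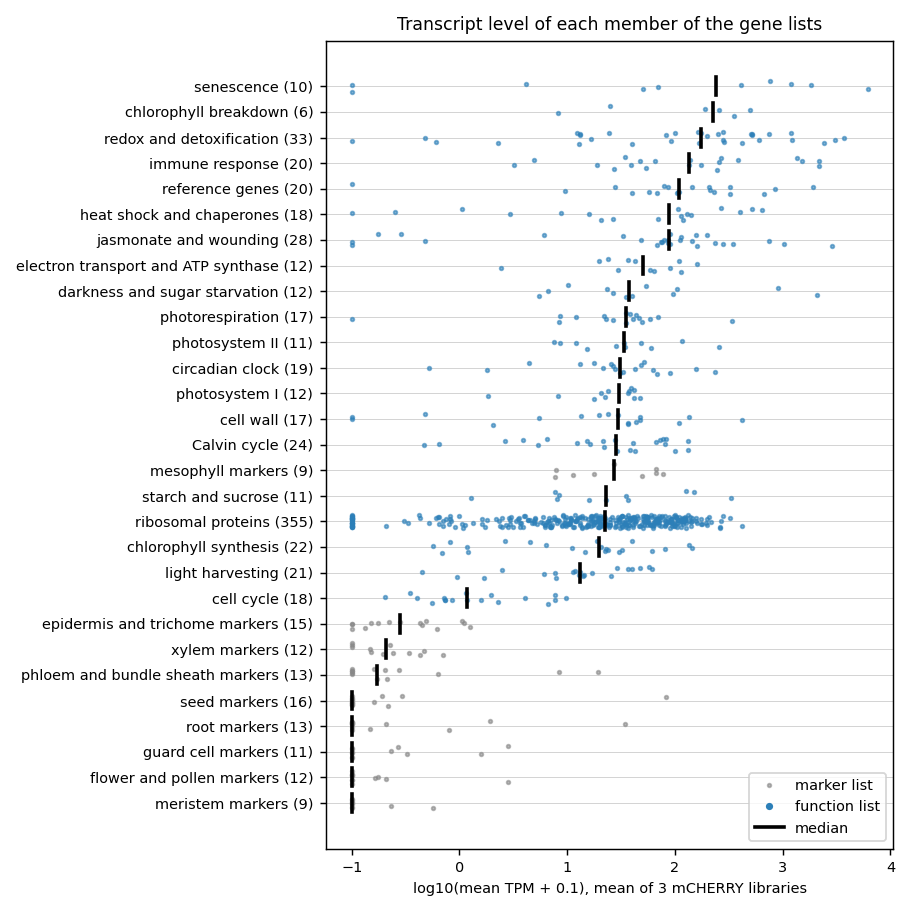
Level of each gene, as log10 of its mean TPM over 3 mCHERRY libraries plus 0.1 (x axis), for 20 function lists and 9 marker lists (rows, number of genes in brackets), 1 point per gene, with a bar at the median. Genes with 0 counts lie at the left edge, where most markers of other organs and the medians of the 5 lowest lists stand, while the medians of the stress and senescence lists lie near 2.

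The label of the cells was compared with markers. All 9 mesophyll markers had reads, and 7 of the 9 exceeded 10 TPM. RCA (AT2G39730), the activase of Rubisco, had 79.9, 72.5 and 81.8 TPM, RBCS1A 67.1 ± 7.8 TPM, the carbonic anhydrases CA1 (AT3G01500) and CA2 66.5 ± 2.3 and 27.2 TPM, GLDP1 49.2 ± 3.0 TPM, PSAD1 17.7 TPM, LHCB2.1, with 31.3% of its words shared with LHCB2.2, 11.1 TPM, LHCB6 7.8 TPM and LHCB3 (AT5G54270) 7.68 ± 1.6 TPM. Of 101 markers of other cell types and organs in 8 lists, 51 had 0 counts in all 3 libraries and 3 exceeded 10 TPM. The summed level of these lists lay between 0.60 TPM for meristem markers and 83.1 TPM for seed markers, against 332 ± 7.6 TPM for the 9 mesophyll markers. The lists hold unlike genes in unlike numbers, so these sums alone do not settle the label. The highest seed marker, EM6, ranked 2424th of the nuclear genes, above RCA, the highest mesophyll marker, at 2564th, though their ranges overlapped. In RNA from a whole sample, fewer cells of a type and less RNA per cell cannot be told apart.

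Guard cell markers summed to 4.73 ± 1.4 TPM, and KAT1, GC1, SPCH, MUTE, EPF1 and EPF2 were at 0, while SLAC1, the guard cell anion channel, had 2.71 ± 0.91 TPM. Epidermis and trichome markers summed to 5.13 ± 1.2 TPM, with FDH, PDF2, MYB16 and GL1 at or near 0. Xylem markers summed to 2.00 ± 0.72 TPM. Phloem and bundle sheath markers summed to 28.3 ± 0.79 TPM, of which the proton pump AHA3 (AT5G57350) gave 19.0 ± 1.1 TPM, while SUC2, SWEET12, FT and FTIP1 were at 0. Root markers summed to 37.0 ± 1.0 TPM, of which the phosphate transporter PHT1;1 (AT5G43350) gave 34.3 ± 1.2 TPM with 48.7% of its words shared with AT5G43370. The seed list summed to 83.1 ± 16.6 TPM, and 99.4% of it came from EM6 (AT2G40170), a late embryogenesis protein, at 98.9, 65.6 and 83.2 TPM. The seed storage proteins CRA1, CRU2, CRU3 and SESA1 to SESA4, the oleosins OLEO2 and OLEO4 and the regulators FUS3 and ABI3 were at 0. Meristem markers STM, WUS and CLV3 and the floral AG, AP1, AP3 and SEP3 were at 0, and PI, a floral organ factor, had 2.70 ± 1.2 TPM.

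Of 27444 protein-coding nuclear loci in the annotation, 16902 (61.6%) had reads in all 3 libraries and 7197 (26.2%) had none in any. A further 2550 loci had 1 to 3 reads over the 3 libraries together. A count of 0 in all 3 libraries allows up to 0.161 CPM, so the 7197 loci are silent only to this depth. The number of loci without reads was 8545, 8815 and 9405 in replicates 1, 2 and 3, in the order of falling depth, and after thinning to 4155836 counts the 3 libraries held reads for 18007, 18041 and 18039 loci. Depth thus matched nearly all of that difference in number. Among silent loci 9.20% had at least 50% of their transcript copied elsewhere, against 1.85% of loci with reads.

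Silence was uneven between gene families, which were taken by product name. Of 208 defensin-like and related cysteine-rich peptides 185 (88.9%) had no reads, as did 59 of 67 self-incompatibility proteins (88.1%), 75 of 120 MADS-box proteins (62.5%) and 364 of 653 F-box proteins (55.7%). Many defensin-like peptides are known from pollen, pistil and seed, and MADS-box proteins are best known for floral identity. At the other end, 24 of 355 ribosomal proteins (6.76%), 27 of 313 pentatricopeptide repeat proteins (8.63%), which process organelle RNA, 131 of 837 protein kinases (15.7%) and 9 of 56 glutathione transferases (16.1%) were silent. Other large families held both silent and highly abundant members. Of 248 cytochrome P450 genes 84 were silent (33.9%) and 22 exceeded 100 TPM (8.87%), with CYP71A12 highest, shares near the 26.2% and 7.26% of all protein-coding loci. Of 76 peroxidases 28 were silent (36.8%) and 8 exceeded 100 TPM (10.5%), with PRXCB holding 10912 of the 15510 TPM of the family. Of 73 WRKY factors, 16 were silent (21.9%) and 19 exceeded 100 TPM. Over all protein-coding loci 7.26% exceeded 100 TPM, against 35.7% of glutathione transferases, 26.0% of WRKY factors and 19.8% of NAC factors.

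The libraries resembled each other closely. Across 13429 genes that passed a filter on low counts, Pearson's r of log2 CPM was 0.989 between replicates 1 and 2, 0.984 between 1 and 3 and 0.986 between 2 and 3, and Spearman's rho was 0.989, 0.983 and 0.985. These are correlations across genes, which are not independent replicates. The common biological coefficient of variation (BCV), the relative spread beyond counting noise estimated by edgeR, was 0.0878, and the median BCV per gene was 0.0963. The per-gene values are drawn towards the trend over genes of like abundance. The BCV of a gene that varies much is therefore lower than its own spread. The common BCV was 0.0697 over replicates 1 and 2 alone, 0.0792 over replicates 2 and 3 and 0.111 over replicates 1 and 3. In genes averaging over 3000 counts the median coefficient of variation was 5.47%, against 1.49% from counting alone. In genes averaging under 30 counts the measured median was 21.5%, and counting alone gives 23.1%. A coefficient over 3 libraries tends to fall below the true one, so these values do not show that spread beyond counting was absent. The median BCV of that class was 0.137.

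**Figure D5:**
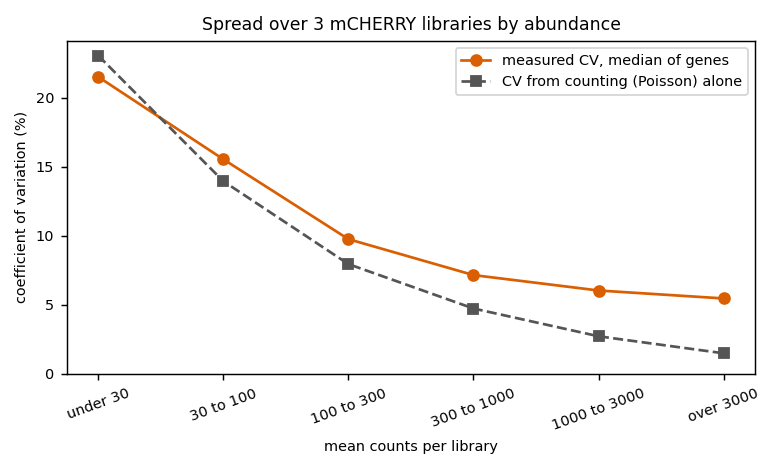
Median coefficient of variation over the 3 mCHERRY libraries (y axis, percent) of genes grouped by mean counts per library (x axis), with the value that counting alone gives as a dashed line. The lines part as counts rise, to 5.47% and 1.49% in the highest class.

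Among the 9913 genes averaging at least 50 counts, the 15 with the highest BCV were mostly high in replicate 3, which was the highest library for 13 of the 15. Over all 9913 genes replicate 3 was the highest for 36.7%. The 15 genes were chosen for their spread in these libraries, and their BCV depended on which libraries were used. With fewer libraries a per-gene BCV is also drawn more strongly towards the trend. The BCV was over 1.5 times lower for 9 of the 15 without replicate 1 and for 11 without replicate 3. By product name, 4 of the 15 were heat shock or chaperone genes. The share of such genes among all 9913 was not counted, so their number among the 15 cannot be judged. AT1G53540, of the HSP20-like family, had 5.21, 12.0 and 25.1 CPM in replicates 1, 2 and 3. Its BCV, drawn towards a trend of 0.113, was the highest at 0.244. It was 0.0978 without replicate 1 and 0.128 without replicate 3. Hsp70b (AT1G16030), a heat-inducible chaperone, had 10.2, 19.2 and 32.2 CPM, HSP17.6A (AT5G12030) had 6.66, 11.2 and 17.8 CPM and the DNAJ protein AT3G04980 had 4.85, 11.1 and 12.2 CPM. In the chaperone list as a whole, 13 of the 14 genes that passed the filter were highest in replicate 3, as were 8 of 11 photosystem I genes, against 37.3% of all 13429 genes that passed it. No other list was counted in this way. These lists hold Hsp70b, HSP17.6A and PSAK, which are among the 15 genes, so the counts are not independent of that choice. Whether the lower depth of replicate 3 has a part in these counts was not tested.

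The other genes with a BCV among the 15 highest had varied products. AT3G10020 had 8.12, 18.1 and 31.7 CPM, PSAK 11.6, 7.69 and 26.6 CPM, the extensin-like AT2G43150 5.21, 10.7 and 17.3 CPM and the Rubisco accumulation factor AT5G28500 6.06, 8.17 and 15.4 CPM. AT5G60630, MDA1 (AT4G14605), a mitochondrial transcription termination factor, AT2G07696, of the ribosomal protein S7 family and 1 of the 47 organelle-like loci, AGP10 (AT4G09030), an arabinogalactan protein, and AT2G37200 also peaked in replicate 3, by 2.26-fold to 2.51-fold between the highest and the lowest library. The RNA helicase RH36 (AT1G16280) was highest in replicate 1, at 11.6 CPM against 5.61 and 6.10 CPM, and ACA2 (AT2G28210), a carbonic anhydrase, was highest in replicate 2, at 12.5 CPM against 7.76 and 5.12 CPM.

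Of 20 genes commonly used as references for quantification, 19 had reads. Set beside all genes of a like mean count, 8 of the 19 had a coefficient of variation below the median of their class and 11 above it. UBC9 was the steadiest at 210, 206 and 207 CPM, a coefficient of variation of 0.883%, with ACT8 at 1.16%, GAPC1 at 1.81% and PP2AA3 at 3.56%. UBQ11, YLS8, UBC21, UBQ10, ACT2, SAND, TUB4 and UBQ5 lay between 4.70% and 9.33%. GAPC2, TIP41L, ACT7, EXPRS, AP2M and EF1ALPHA lay between 10.4% and 14.3%, and EF1ALPHA, the highest of these, stood beside a class median of 6.05%. FBOX, with 61.7 counts on average, reached 26.3%, against 15.6% for its class. HELICASE (AT1G58050) had 0 counts. Their levels covered a wide range, from 1930 ± 56.6 TPM for GAPC1 (AT3G04120), a glycolytic enzyme, to 9.40 TPM for FBOX, with UBQ10 (AT4G05320) at 852 ± 67.2 TPM, ACT2, an actin, at 210 TPM, and the phosphatase subunit PP2AA3 at 56.8 TPM.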

How the data were processed

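The 3 mCHERRY libraries were analysed alone. Per the labels and the study's methods, the authors removed rRNA reads, aligned the rest to TAIR10 primary transcripts with Bowtie 0.12.7, kept reads with 1 best location, and deposited raw counts per transcript. Strand is not given in the sources used here. A deposited signal table holds the authors' TMM-normalized values (edgeR 3.10.5) of 15541 transcripts and served only as an alternative. Its GmWRI1 columns were not used. Counts under no gene name stayed out of all totals.

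CPM used all gene counts. TPM used transcript lengths of the TAIR10.1 RefSeq annotation, which can differ from the authors' TAIR10 models, over nuclear loci alone. Of 20254 loci, 20234 had the length of the same isoform, and 41 loci with reads had none. Organelle IDs were ranked by CPM where TPM had been planned. Product names did not separate cytosolic from plastid ribosomal proteins, so these form 1 list. Shared sequence was measured in exact 32-base words. Spread came from edgeR 4.0.16 in R 4.3.3 (TMM, minimum count of 10, intercept only, log2 CPM with a prior count of 2). The estimate of spread was tested on simulated data with a BCV of 0.15, and the median came back as 0.162. Of 200 genes simulated at a BCV of 0.6, 70.5% were among the 200 ranked highest, so the ranking misses some. Both settings lie above the common BCV of 0.0878 in the data, so the ranking was not tested at the spread seen here. Floors of 3 counts cover counting error only.

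Named genes were the 30 nuclear, 10 chloroplast and 5 mitochondrial genes of highest mean, the 4 highest and the lowest of each function list, markers over 10 TPM or at 0, the 15 of highest BCV among genes averaging at least 50 counts, and 20 reference genes. Others were named after their values were seen. The members and lists were chosen with earlier results of these data known. No test between groups was made, and every value is a description. The promoter window of 1 further gene is not reported here.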

Additional observations from a re-analysis of the deposited data

How the results depend on the processing

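No paired analysis was possible because only 1 group was analysed and no result comes from a test. Shares of TPM by compartment and TPM with all genes in the denominator were not run, since organelle lengths were not used, and the nuclear denominator is the one reported. With organelle-like nuclear loci counted as organelle genes, a choice made after seeing the data, the nuclear share was 86.9% and the mitochondrial share 2.05%. The top 20, 100 and 1000 genes held 10.5%, 22.6% and 55.1% of counts among nuclear genes only, 12.0%, 24.4% and 56.2% of TPM, and 15.3%, 27.9% and 58.5% with the organelle-like loci left out, also chosen after seeing the data. Genes detected in no library numbered 12573 at a minimum of 10 counts and 11865 at 1 CPM. The 5 photosynthesis lists summed to 2273 in CPM without length. Their median percentile was 63.1 in CPM, 69.9 with length free of copies, 60.9 in the deposited normalized values divided by length, a table with fewer low genes, and 69.1 to 70.8 with 1 library left out. Leaving out each library in turn gave a common BCV of 0.0697 to 0.111. DESeq2 size factors and library size alone left the BCV within 1.5 times its value. Values under 1 CPM rest on a few reads in each library, and lengths, copies and the undefined strand limit the level of single genes.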
